A study of Mus musculus with 8 samples.

Results

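The genes described here encode 7 secreted antagonists of Wnt signalling, Sfrp1, Sfrp2, Frzb, Wif1, Dkk1, Dkk2 and Dkk3, and the membrane receptor Kremen1. They were taken as all probe sets whose platform gene symbol is one of these names, 17 probe sets in all, and the 8 genes are 8 of the 16112 genes fitted. Of the 17 probe sets, 15 passed the filter on low signals, and each of the 8 genes kept at least 1. Total RNA came from the mesenchyme, or connective tissue, of lungs of CD1 mouse embryos staged e11.5 to e12.5. Tip mesenchyme surrounds the growing branch ends and stalk mesenchyme the airway behind them, and both were extracted without culture. Other stalk tissue spent 12 h on plastic, in control growth medium or in the same medium with 400 ng/ml of the ligand Wnt1. The 4 groups (tip, stalk, control culture and Wnt1 culture) hold 2 arrays each. The labels name no transgene or mutation in any group and do not say whether replicates are separate litters. The p-values therefore cover the spread among these arrays only, and that spread may be technical.

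Secreted Wnt antagonists act outside the cell at separate steps. Sfrp1, Sfrp2 and Frzb (secreted frizzled-related proteins) carry a domain like the ligand-binding domain of Frizzled receptors and bind Wnt proteins, and Wif1 binds Wnt proteins through a domain of its own. Dkk1 and Dkk2 bind the Lrp5 and Lrp6 co-receptors, and Kremen receptors can join Dkk and Lrp6 in a complex that is removed from the cell surface, while Dkk3 is a divergent member of the Dickkopf family. In the early lung, Wnt ligands from epithelium and mesothelium act on the mesenchyme, and several antagonists are themselves transcribed in response to Wnt signalling.

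Signals on the 4 uncultured arrays had medians of 76.5 to 99.8, and those on the 4 cultured arrays 149 to 299. The ratio of 3' to 5' signal for Actb, a measure of RNA integrity and amplification, was 2.02 to 4.52 uncultured and 6.81 to 24.4 cultured. The highest array median, 298.6, is used below as a stand-in for the level under which a signal cannot be told from background, since detection calls were not used here. The mesenchymal regulator Tbx4 was at 2942 to 4304 on uncultured arrays and 741 to 1183 on cultured ones. Fgf10, another marker of lung mesenchyme, went the other way, from 166 and 134 in stalk to 796 and 503 in control culture. By the limma test 7 of the 12 such markers fell and 2 rose in control culture minus stalk (9.26% and 17.1% of all genes). In Wnt1 culture minus stalk 6 fell and 0 rose (6.88% and 9.33% of all genes). Of 15 epithelial markers, 3 (Cdh1, Foxa2 and Nkx2-1) lay below and 7 above the median of their own array on every uncultured array, with Krt8 at 486 to 1119. Epcam was at 136 to 238 uncultured and 825 to 970 cultured, on a probe set (suffix _x_at) whose probes may bind other transcripts. Sox9 was at 198 to 424 uncultured, 479 and 412 in control culture and 42.4 to 47.7 in Wnt1 culture. Tissue was not sorted, so fewer cells of a type and less RNA per cell cannot be told apart.

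Of the 8 genes, Sfrp1, Sfrp2, Dkk2 and Dkk3 had a mean above 298.6 in at least 1 group on the probe set that stands for the gene. Kremen1 did so only on its 2 other probe sets. Dkk2 was highest in the Wnt1 culture, at a mean of 781 ± 84.5 (SD, n = 2) against 289 ± 5.49 in control culture and 176 ± 6.90 in stalk. Sfrp1 was lower in the Wnt1 culture, 538 ± 194, than in stalk, 1259 ± 174. These differences of Dkk2 and Sfrp1 between Wnt1 culture and uncultured stalk passed the test, and no gene of the 16112 passed it between tip and stalk or between the 2 cultures. Sfrp2 and Dkk3 had opposite differences between tip and stalk, and neither passed the test.

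**Figure D1:**
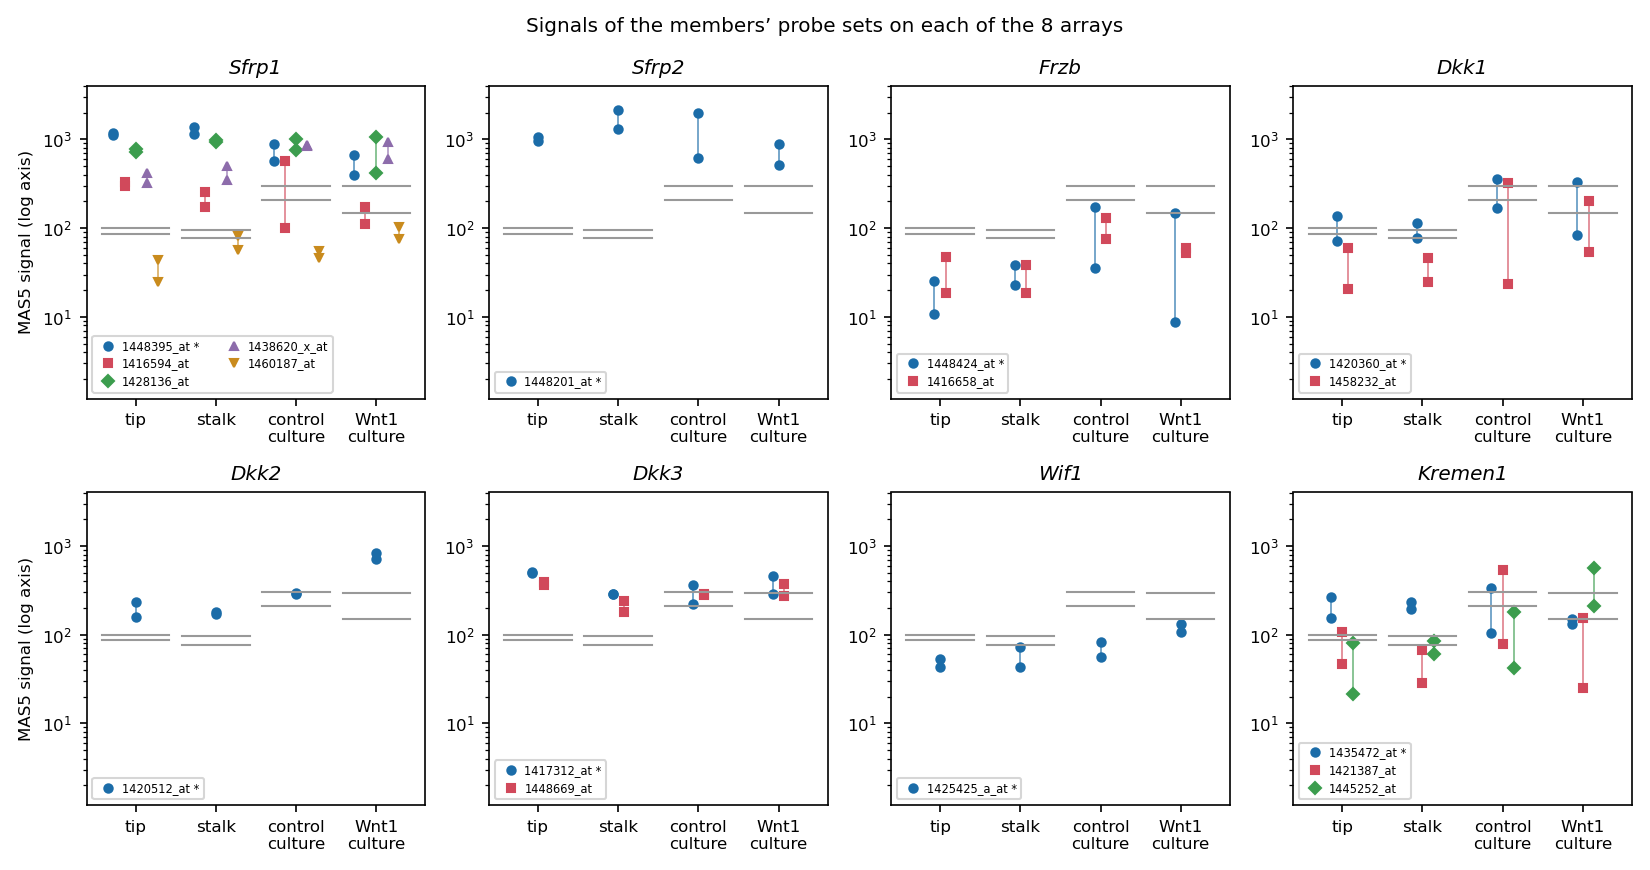
Signal (log axis) of each of the 17 probe sets on the 8 arrays, by group. Points of one colour are the 2 arrays of a group joined by a line, an asterisk in the legend marks the probe set that stands for the gene, and grey lines mark the median signal of each array. Dkk2 lies at 721 and 840 in the Wnt1 culture, above its values on the other 6 arrays, and Frzb and Wif1 lie below the array median everywhere.

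Sfrp1, represented by probe set 1448395_at, had signals of 1135 and 1175 in tip, 1382 and 1137 in stalk, 572 and 888 in control culture and 675 and 401 in Wnt1 culture. All 4 uncultured values exceeded all 4 cultured values, and the 2 cultures overlapped. The log2 fold change of Wnt1 culture against stalk was -1.20 ± 0.38 (SE; 95% confidence interval -2.01 to -0.38; limma adjusted p = 0.0478). Against the same stalk arrays, control culture differed by -0.78 ± 0.38 (adjusted p = 0.131), so the order stalk, control culture, Wnt1 culture has neighbours that were not separated by the test. Tip and stalk overlapped, with a difference of -0.11 ± 0.38.

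The call for Sfrp1 rested on the choice of probe set. Probe set 1428136_at read 939 and 982 in stalk and 1067 and 420 in Wnt1 culture, which overlap. Probe set 1438620_x_at read 501 and 346 in stalk, 868 and 833 in control culture and 938 and 601 in Wnt1 culture, so that both cultures lay above stalk, opposite to 1448395_at. The suffix _x_at marks a probe set whose probes may bind other transcripts. Probe set 1416594_at read 174 and 258 in stalk and 111 and 175 in Wnt1 culture, below 298.6 on all 4 arrays, and 1460187_at, at 24.9 to 102 over all arrays, failed the filter. With the probe sets averaged, the Wnt1 culture difference was -0.34 (adjusted p = 0.446), and under quantile normalization it was -0.96 (0.189). Leaving out either stalk array gave adjusted p = 0.243 (without replicate 1) and 0.214 (replicate 2), and the call was also lost without either Wnt1 culture array (0.0517 and 0.104) and without either tip array (0.0926 and 0.0923).

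Sfrp2, a second secreted frizzled-related protein with 1 probe set, was at 955 and 1074 in tip, 2168 and 1327 in stalk, 615 and 1991 in control culture and 881 and 510 in Wnt1 culture. Both tip values lay below both stalk values, and both Wnt1 culture values lay below stalk and below tip. The control culture arrays were far apart, a gap of 1.63 log2 units, and overlapped every other group. Tip minus stalk was -0.72 ± 0.49 (95% confidence interval -1.79 to 0.35; adjusted p = 0.99992). Wnt1 culture minus stalk was -1.28 ± 0.49 (adjusted p = 0.0845), and it passed the test without either control culture array, which changes only the shared estimate of spread (adjusted p = 0.0271 without replicate 1 and 0.0286 without replicate 2). It also passed with array medians centred (-2.26, adjusted p = 0.0311). Wnt1 minus control culture was -0.69 ± 0.49, and its same-numbered arrays differed by 0.49 and -1.88, in opposite directions.

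Frzb, the third frizzled-related protein, was dim. Its representative probe set read 10.7 and 25.5 in tip, 38.2 and 22.9 in stalk, 173 and 36.0 in control culture and 146 and 8.65 in Wnt1 culture. It stayed below the median of its own array on all 8 arrays, and its second probe set, at 18.4 to 131, failed the filter. The probe set passed the filter through the array numbered 1 of each culture, and no difference of Frzb passed the test (lowest adjusted p = 0.407).

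Wif1 was also below the median of its own array on all 8 arrays. Its signals were 53.5 and 43.0 in tip, 73.1 and 43.4 in stalk, 55.9 and 82.4 in control culture and 133 and 106 in Wnt1 culture. The Wnt1 culture values were higher than all others, and the probe set passed the filter only through them. Wnt1 minus control culture was 0.53 ± 0.57 (adjusted p = 0.882), smaller than its error.

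Dkk1 and Dkk2, whose products bind Lrp5 and Lrp6, each exceeded 298.6 on 2 of the 8 arrays, Dkk2 on both Wnt1 culture arrays and Dkk1 on 1 array of each culture. Dkk1 read 71.5 and 139 in tip, 113 and 77.7 in stalk, 359 and 171 in control culture and 328 and 82.6 in Wnt1 culture, and its second probe set, 1458232_at, was lower than 298.6 on 7 of the 8 arrays. Both control culture values lay above stalk, by 1.08 ± 0.63 (adjusted p = 0.199), and the Wnt1 culture overlapped all other groups. The first array of each culture was the higher one for both probe sets. Under quantile normalization the control culture difference was -0.06.

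Dkk2 had signals of 233 and 160 in tip, 171 and 181 in stalk, 285 and 293 in control culture and 721 and 840 in Wnt1 culture. Both Wnt1 culture values exceeded the other 6, and tip and stalk overlapped. Wnt1 minus control culture was 1.30 ± 0.42 (95% confidence interval 0.38 to 2.22). Both control culture values and both stalk values lay below 298.6, so the size of this difference and of that from stalk is uncertain. Counted from a floor of 298.6, each was 1.26. For Wnt1 minus control culture the unadjusted p was 0.0092, one of 1297 genes with an unadjusted p under 0.05, and the limma adjusted p was 0.553. The same-numbered arrays of the 2 cultures differed by 1.21 and 1.39. Wnt1 culture minus stalk was 1.90 ± 0.42 (0.98 to 2.82; adjusted p = 0.0168), and control culture minus stalk, which shares the stalk arrays, was 0.60 ± 0.42 (adjusted p = 0.291).

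A rank within the array does not change when all its signals are multiplied by a constant. Dkk2 lay at percentiles 61.4 to 65.9 of all probe sets on the uncultured arrays, at 48.4 and 61.2 in control culture and at 81.1 and 85.9 in Wnt1 culture. The Wnt1 culture ranks were above the other 6, while control culture did not rank above stalk. Under quantile normalization Wnt1 minus control culture was 1.94 and control culture minus stalk was -0.36, and with array medians centred they were 1.503 and -0.586, so the direction of control culture against stalk depended on the scaling. Wnt1 minus control culture was above 0 in all 22 alternatives, 0.87 to 1.94, with adjusted p from 0.0141 to 0.99943, and passed the test only with signals floored at 298.6 (1.26, adjusted p = 0.0141). That floor gave the other 6 arrays an identical value and removed their spread, so this pass is no support for a difference. Wnt1 culture minus stalk passed in 18 of 22. The run with that floor is among the 18, and since it also gave both stalk arrays the same value, its pass is no support either. It did not pass under quantile normalization (1.58, adjusted p = 0.0778), with medians centred (0.92, 0.180), or without stalk replicate 1 (1.87, 0.127) or replicate 2 (1.93, 0.151).

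**Figure D2:**
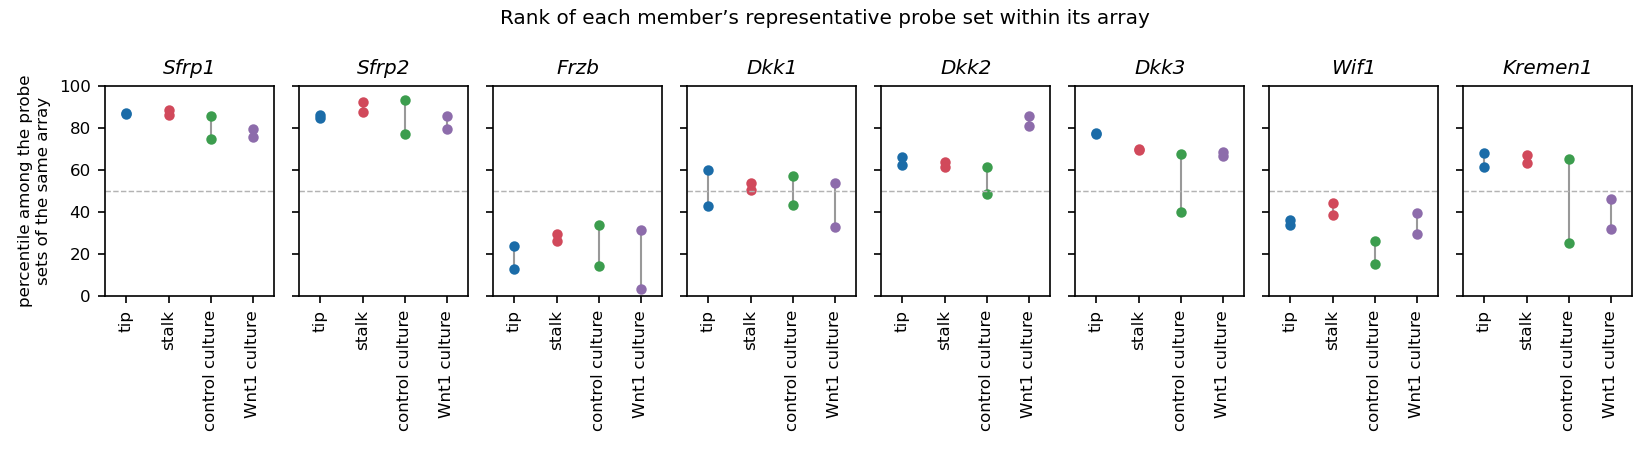
Percentile of each gene's representative probe set among all probe sets of the same array, for the 2 arrays of each group, joined by a line. The dashed line marks the array median. Dkk2 ranked at 81.1 and 85.9 in the Wnt1 culture and at 48.4 to 65.9 elsewhere, and Sfrp1 ranked at 74.8 to 88.5 on all arrays.

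Summed signals of the smooth muscle and endothelial marker lists, in which bright markers weigh most, also differed between the 2 cultures. The 10 smooth muscle markers summed to 111712 to 127077 in control culture and 150822 to 180088 in Wnt1 culture, and the endothelial markers (12 of 13 passed the filter) to 3917 to 4577 and 1766 to 3794. No marker of either list was listed at 0, and none of the 10 or 12 passed the test between the cultures. Acta2 made up most of the smooth muscle sums, at 101822 and 89032 in control culture and 122878 and 107622 in Wnt1 culture. With Wnt1, 7 of the 10 smooth muscle markers lay above 0 and 3 below. Of the 12 endothelial markers 10 lay below and 2 above, Tek at 1.76 and Emcn at 1.31. The median of all genes was -0.08. In uncultured stalk the 2 lists summed to 5660 to 6805 and 11295 to 13605. The lung mesenchyme markers summed to 55016 to 62198 in stalk and 25344 to 44374 in Wnt1 culture, the macrophage markers to 4612 to 5064 and 13513 to 15559, and the epithelial markers to 5840 to 6686 and 9681 to 22287. On the Wnt1 culture array numbered 2, Id2 (8502), Krt18 (6905) and Krt8 (4384) made up most of the epithelial sum. The part of these cell types in the Dkk2 and Sfrp1 differences was not tested.

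Promoter sequences from RefSeq (build GRCm38.p6), spanning 250 bases before to 50 after the start of the gene, were at hand for 5 of the 8 genes, Sfrp2, Frzb, Wif1, Dkk1 and Dkk2. They were searched on both strands for CTTTGA and CTTTGT, the core letters bound by TCF and LEF factors, which carry the Wnt/beta-catenin signal to DNA. Dkk2, Dkk1 and Sfrp2 are shown because they differ in the number of matches, and because Dkk2 had separate values in the 2 cultures while Dkk1 and Sfrp2 overlapped. They lie at chr3:132085042-132085341 on the plus strand, chr19:30549447-30549746 on the minus strand and chr3:83766071-83766370 on the plus strand. The sequences run 5′ to 3′ along the gene, with matches in capitals (TCAAAG is CTTTGA on the opposite strand).
Dkk2: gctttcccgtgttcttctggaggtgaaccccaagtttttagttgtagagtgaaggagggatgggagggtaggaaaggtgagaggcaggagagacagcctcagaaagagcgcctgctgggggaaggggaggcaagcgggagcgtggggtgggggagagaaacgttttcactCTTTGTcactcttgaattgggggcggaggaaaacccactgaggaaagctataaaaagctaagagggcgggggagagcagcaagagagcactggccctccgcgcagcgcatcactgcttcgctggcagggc
Dkk1: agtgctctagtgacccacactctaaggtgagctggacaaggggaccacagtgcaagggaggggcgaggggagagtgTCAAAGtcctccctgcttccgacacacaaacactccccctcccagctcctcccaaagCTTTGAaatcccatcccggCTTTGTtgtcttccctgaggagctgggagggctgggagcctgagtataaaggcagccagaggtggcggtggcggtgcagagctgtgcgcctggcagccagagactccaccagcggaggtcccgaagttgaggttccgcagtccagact
Sfrp2: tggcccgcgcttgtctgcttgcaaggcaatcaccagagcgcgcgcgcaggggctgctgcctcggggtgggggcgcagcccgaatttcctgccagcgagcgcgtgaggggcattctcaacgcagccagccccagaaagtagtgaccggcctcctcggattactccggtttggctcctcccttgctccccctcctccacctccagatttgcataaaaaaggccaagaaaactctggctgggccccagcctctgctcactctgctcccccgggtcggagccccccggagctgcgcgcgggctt
The Dkk2 promoter held 1 match, 80 to 75 bases before the start, and the Dkk1 promoter held 3, at 174 to 169, 117 to 112 and 98 to 93 bases before it. Frzb held 1, Sfrp2 and Wif1 held 0. Of 32851 promoters of this length, 31.2% held at least 1 match and 1.14% held 3 or more. A match is a run of letters and not a site shown to be bound, and a link between matches and the differences was not tested.

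Dkk3, the divergent Dickkopf gene, was at 501 and 502 in tip, 290 and 286 in stalk, 221 and 359 in control culture and 455 and 284 in Wnt1 culture. Both tip values exceeded both stalk values, and the cultures overlapped each other and stalk. The second probe set gave 390 and 364 in tip and 178 and 237 in stalk, again without overlap. The stalk values of both probe sets lay below 298.6. Tip minus stalk was 0.71 ± 0.43 (95% confidence interval -0.22 to 1.65; adjusted p = 0.99992), and 0.75 ± 0.44 for the second probe set. The difference was 0.45 to 0.77 in 22 alternatives and passed the test in 0 of them. The 9 mesothelial markers summed to 6820 to 11567 in tip and 5153 to 5456 in stalk, with 8 of the 9 above 0 in the comparison. The smooth muscle markers summed to 1780 to 4780 and 5660 to 6805, the 7 pericyte markers to 9184 to 9235 and 11950 to 13568, and the endothelial markers to 7185 to 9836 and 11295 to 13605, with no marker of these lists at 0. The part of these cell types in the Dkk3 and Sfrp2 differences was not tested.

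Kremen1, a receptor for Dkk1 and Dkk2, gave different patterns on its 3 probe sets. The representative probe set 1435472_at read 263 and 154 in tip, 193 and 232 in stalk, 104 and 334 in control culture and 150 and 132 in Wnt1 culture, so both Wnt1 culture values lay below stalk (-0.47 ± 0.56). Probe set 1445252_at read 85.0 and 60.4 in stalk, 42.4 and 178 in control culture and 569 and 212 in Wnt1 culture. With each probe set fitted on its own, Wnt1 culture lay above stalk by 1.77 ± 0.67 (limma adjusted p = 0.0938). Both stalk values and the Wnt1 culture value of 212 lay below the highest array median, so the size of this difference is uncertain. This probe set would not have passed the filter without its Wnt1 culture values, so the difference is no support for a change. Probe set 1421387_at read 67.3 and 28.3 in stalk, 540 and 77.7 in control culture and 24.8 and 154 in Wnt1 culture, and these overlap between Wnt1 culture and stalk. No difference of Kremen1 passed the test, and no direction held over its probe sets.

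**Figure D3:**
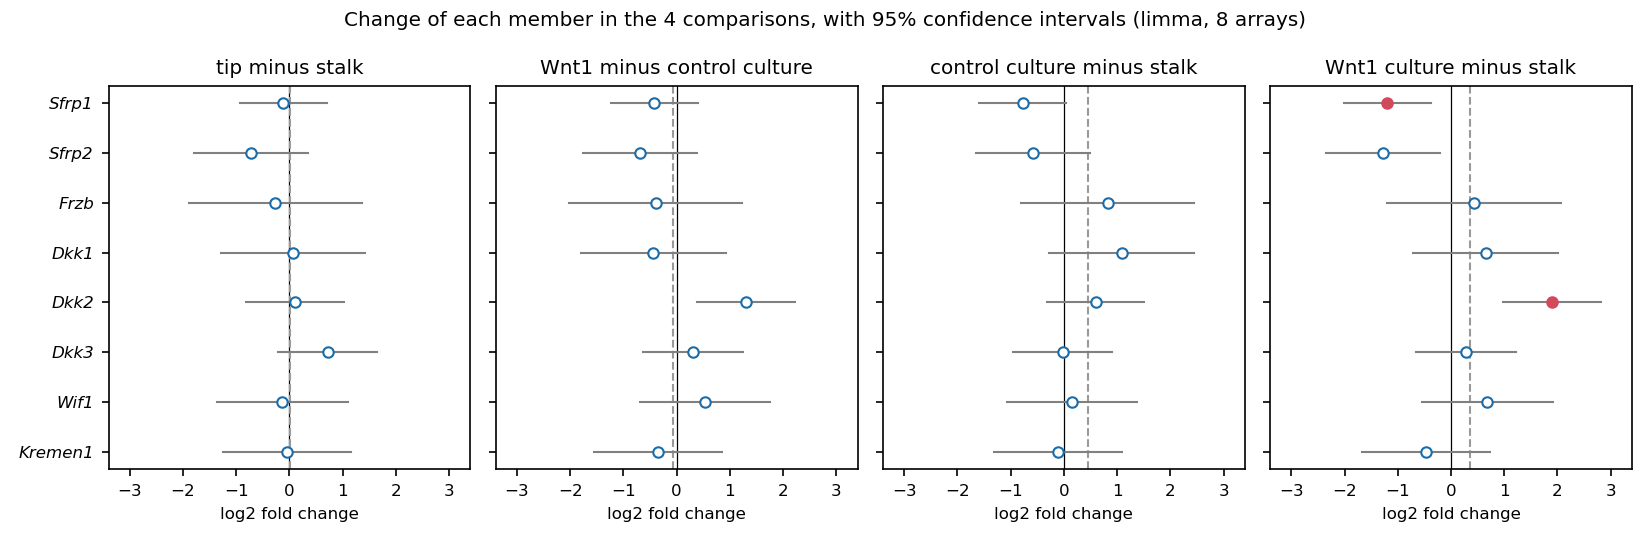
Log2 fold change of each gene in the 4 comparisons with 95% confidence intervals from limma. Filled red points passed adjusted p under 0.05 and the dashed line marks the median of all 16112 genes. Dkk2 (1.90) and Sfrp1 (-1.20) passed in Wnt1 culture minus stalk, and 0 of 8 passed in the other 3 comparisons.

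Counted by comparison, tip and stalk differed in 0 of the 8 genes and 0% of all genes by the limma test, with 91 of the 16112 genes, and 0 of the 8, at an unadjusted p under 0.05. The groups did not overlap for 2 of the 8 (Dkk3 higher, Sfrp2 lower), against 34.4% of all genes. Their median log2 fold change was -0.08, and that of all genes 0.01. The 2 cultures differed in 0 of the 8 genes and 0% of all genes, with 1297 genes at an unadjusted p under 0.05, of which Dkk2 was the 1 among the 8. The groups did not overlap for 2 of the 8 (Dkk2 and Wif1, both higher with Wnt1), against 26% of all genes, a share near that of the 8. Wif1 passed the filter only through its Wnt1 culture values, so its place in this count is no support for a difference. The median of the 8 was -0.38 and that of all genes -0.08. The smallest p of an exact permutation test of 2 arrays against 2 is 0.333, so none was run.

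The comparisons with uncultured stalk had a far larger background. In control culture minus stalk, 17.1% of all genes were higher and 9.26% lower, and 0 of the 8 passed, with 0 of the 8 also at an unadjusted p under 0.05. The groups did not overlap for 3 of the 8 (Dkk1 and Dkk2 higher, Sfrp1 lower), against 71.5% of all genes. In Wnt1 culture minus stalk, 9.33% of all genes were higher and 6.88% lower, and 1 of the 8 was higher (Dkk2) and 1 lower (Sfrp1). The groups did not overlap for 5 of the 8 (Dkk2 and Wif1 higher, Sfrp1, Sfrp2 and Kremen1 lower), against 66.9%. Here too Wif1 had passed the filter only through the Wnt1 culture, and its difference was -0.27 under quantile normalization and -0.30 with medians centred. The direction of these calls moved with the scaling. Of the calls in control culture minus stalk, 64.9% were higher, against 45.2% under quantile normalization and 7.72% with medians centred, and in Wnt1 culture minus stalk 57.6%, against 46.3% and 7.82%. The median of all genes was 0.44 and 0.35 in the 2 comparisons, 0.04 in both under quantile normalization, and -0.74 and -0.63 with medians centred. Relative to those medians of 0.44 and 0.35, Sfrp1 and Sfrp2 lay lower in both comparisons, also under quantile normalization, and Dkk2 higher in both, except in control culture minus stalk under quantile normalization. The part of RNA quality or signal scale, which both differed between cultured and uncultured arrays, was not tested.

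The spread between replicates sets what could be seen. Over the 8 genes the median gap between the 2 arrays of a group was 0.25 log2 units in tip, 0.28 in stalk, 0.76 in control culture and 0.65 in Wnt1 culture, close to the 0.28, 0.28, 0.65 and 0.75 of all genes. The widest gap in the Wnt1 culture was that of Frzb, 1.84, and in control culture that of Sfrp2, 1.63. Errors in the fit come from all 8 arrays, so those of tip minus stalk take in the wider spread of the cultures. With the arrays of the 2 groups only, the SE of tip minus stalk was 0.26 for Dkk3 and 0.25 for Sfrp2 (limma adjusted p = 0.914 for both). Errors between the cultures take in the narrower uncultured spread, and with those 2 groups only the SE was 0.61 for Sfrp1 and 0.57 for Sfrp2.

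**Figure D4:**
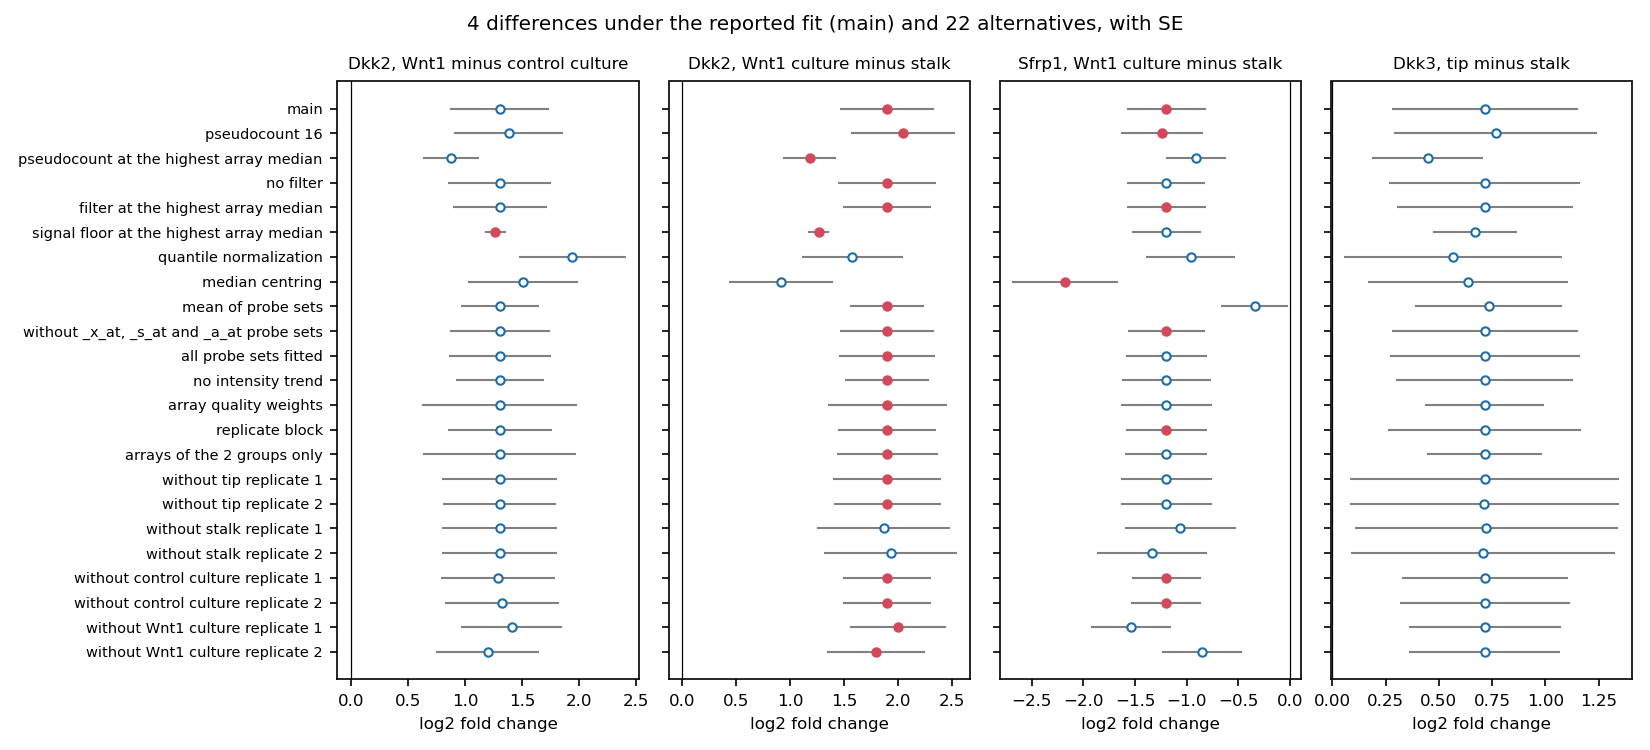
Log2 fold change ± SE of 4 differences under the reported fit (top) and 22 alternatives, filled red where adjusted p was under 0.05. Dkk2 in Wnt1 minus control culture stayed between 0.87 and 1.94 and passed once, and Sfrp1 in Wnt1 culture minus stalk ran from -2.18 to -0.34.

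Among 20 other secreted or membrane-bound Wnt inhibitors, 17 were fitted. Between tip and stalk and between the 2 cultures, 0 of the 17 passed the limma test. At an unadjusted p under 0.05 were 0 and 3, against 91 and 1297 of all 16112 genes. With Wnt1, 13 of the 17 lay below 0 (median -0.26), where the median of all genes, -0.08, was also below 0. Under quantile normalization 10 lay below 0 (median -0.12, against 0.01 of all genes). In tip minus stalk Cer1 was at 0.76 and Sfrp5 at 0.74, with all their signals in both groups below 298.6. With Wnt1 the largest differences were Sostdc1, an antagonist of Wnt and Bmp signals, at -1.89 ± 0.61, and Cer1, which binds Nodal and Bmp proteins, at -1.77 ± 0.63. Sostdc1 read 329 and 150 in control culture and 11.9 and 49.2 in Wnt1 culture, and Cer1 320 and 119 against 38.4 and 17.5. Each exceeded 298.6 only on the control culture array numbered 1, so the size of these differences is uncertain. Both genes passed the filter only through control culture, so their differences and their place among the 13 below 0 are no support for a change. In control culture minus stalk 5 rose and 2 fell (median 0.77), where 17.1% of all genes rose and 9.26% fell (median 0.44). Sfrp4, a further frizzled-related protein, rose by 2.18 ± 0.53 (adjusted p = 0.0169), Trabd2b, a protease that cleaves Wnt proteins, by 1.80 ± 0.39 and Cer1 by 2.29 ± 0.63, while Shisa2, which retains Frizzled receptors inside the cell, was at -1.35 ± 0.36. In Wnt1 culture minus stalk 4 rose and 1 fell (median 0.43), where 9.33% of all genes rose and 6.88% fell (median 0.35), with Sfrp4 at 1.95, Cthrc1, a secreted glycoprotein, at 1.52, Trabd2b at 1.35 and Shisa2 at -1.85. Cer1 read 7.80 and 3.22 and Sfrp4 126 and 100 in stalk, below 298.6, so the size of their differences is uncertain. The rise of Cer1 is no support for a change either, since it passed the filter only through control culture. With signals floored at 298.6, control culture minus stalk was 0.04 for Cer1 (adjusted p = 0.428), 1.05 for Sfrp4 (0.360), -1.35 for Shisa2 (0.0966) and 1.53 for Trabd2b (0.0306), and none of the 4 genes named for Wnt1 culture passed (adjusted p = 0.0660 to 0.483). Trabd2b read 303 and 191 in stalk, and the floor raised the lower value to 298.6 and so removed most of their spread. Its pass with the floor is therefore no support for a difference. With medians centred Trabd2b was at 0.62 in control culture (limma adjusted p = 0.329). Under quantile normalization 1 rose and 0 fell in each of these 2 comparisons. Of all 16112 genes, 565 rose and 685 fell in control culture under that setting, and 311 rose and 361 fell in Wnt1 culture.

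Of 19 Wnt receptors, 18 were fitted, and 2 rose and 5 fell in both control culture and Wnt1 culture against stalk (medians -0.51 and -0.56, against 0.44 and 0.35 of all genes). Of all genes, 17.1% rose and 9.26% fell in control culture, and 9.33% rose and 6.88% fell in Wnt1 culture. Lrp6, the co-receptor that Dkk1 and Dkk2 bind, read 1280 and 978 in stalk, 109 and 591 in control culture and 107 and 46.5 in Wnt1 culture, and fell in Wnt1 culture minus stalk (-3.31 ± 0.58, adjusted p = 0.00775). The Frizzled receptors Fzd7 and Fzd3 were at -2.35 and -3.16 there and at -1.77 and -2.10 in control culture, where Ryk, a receptor of Wnt5a, was at -2.07 and Lgr5, an R-spondin receptor, at 2.79. With the probe sets of a gene averaged, Fzd3 and Fzd7 no longer passed in either comparison (adjusted p = 0.977 and 0.438 in control culture, 0.480 and 0.114 in Wnt1 culture). Ryk was at -0.92 with probe sets averaged (adjusted p = 0.176) and at -0.32 without _x_at, _s_at and _a_at probe sets (0.687). Fzd9 was at 2.46 in Wnt1 culture. Like Lgr5, it passed the filter only through the cultures, so the rises of these genes from stalk are no support for a change. Fzd9 read 41.0 and 11.2 and Lgr5 41.0 and 3.23 in stalk, and with signals floored at 298.6 they were at 0.32 (adjusted p = 0.483) and 0.37 (0.428), and Lrp6 at -1.76 (0.0825). Under quantile normalization 1 rose and 2 fell in control culture (565 and 685 of all 16112 genes), and 0 rose and 3 fell in Wnt1 culture (311 and 361). Between tip and stalk and between the cultures 0 of 18 passed (0 and 4 at an unadjusted p under 0.05, against 91 and 1297 of all 16112 genes). The largest differences were Lgr5 at 1.05 and Fzd3 at -0.53 in tip minus stalk and Fzd2 at -1.42 and Lrp6 at -1.41 with Wnt1. Lgr5 lay below 298.6 on all tip and stalk arrays.

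Of 25 Wnt ligands, R-spondins and secretion factors, 19 were fitted. In control culture minus stalk 7 rose and 2 fell (median 1.45, against 0.44 of all genes), where 17.1% of all genes rose and 9.26% fell. In Wnt1 culture minus stalk 3 rose and 2 fell (median 1.13, against 0.35), where 9.33% of all genes rose and 6.88% fell. Wnt4 was at 3.82 and 3.69, and Wnt2, a ligand of lung mesenchyme, at -2.60 and -3.34. The R-spondin Rspo2, which amplifies Wnt signals, was at -1.56 and -1.64, but at 0.22 and 0.18 with its probe sets averaged. Wnt5a was at 1.93 in control culture and Wnt8a at 2.58 in Wnt1 culture. All 3 of Wnt4, Wnt5a and Wnt8a lay below 298.6 in stalk. Wnt4 and Wnt8a passed the filter only through the cultures, where they were high, so their place among the genes that rose is no support for a change. With signals floored there, Wnt4 was at 1.26 and 1.13 (adjusted p = 0.0675 and 0.102) and Wnt8a at 0.43 (0.484), and with medians centred Wnt5a was at 0.75 (0.257). Wnt2 did not pass with the floor either (0.0946 and 0.0809). Under quantile normalization 2 rose and 1 fell in control culture (565 and 685 of all 16112 genes), and 1 rose and 1 fell in Wnt1 culture (311 and 361). In tip minus stalk and Wnt1 minus control culture 0 of 19 passed. At an unadjusted p under 0.05 were 0 and 2, against 91 and 1297 of all 16112 genes. The largest differences were Wnt9a at 0.81 and Rspo2 at 0.54 in tip minus stalk, and Wnt10a at -1.58 and Wnt8b at -1.19 with Wnt1. Wnt9a lay below 298.6 in stalk (210 and 228) and Wnt10a in Wnt1 culture (68.9 and 80.8). Wnt10a passed the filter only through control culture, so its difference is no support for a change.

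Of 24 targets and intracellular feedback genes of the Wnt/beta-catenin pathway, 22 were fitted, and 0 passed between the cultures. At an unadjusted p under 0.05 were 2, against 1297 of all 16112 genes. Above 0 lay 7 and below it 15 (median -0.32, against -0.08 of all genes). The largest differences there were Dact2 at 1.53 and Dact3 at -1.13, both regulators of Dishevelled. Dact2 read 131 and 22.2 in control culture, below 298.6, and 517 and 128 in Wnt1 culture, and these overlap. It would not have passed the filter without its Wnt1 culture values, so its place as the largest difference is no support for a change. In control culture minus stalk 1 rose and 6 fell (median -0.14, against 0.44 of all genes), where 17.1% of all genes rose and 9.26% fell. In Wnt1 culture minus stalk 1 rose and 5 fell (median -0.41, against 0.35), where 9.33% of all genes rose and 6.88% fell. Tnfrsf19, a receptor transcribed in response to beta-catenin, was at -3.11 and -3.00, Myc at -1.90 and -1.71 and Ccnd1, cyclin D1, at -1.50 and -1.90. Dact1 was at -1.92 in control culture and the transcription factor Lef1 at -1.98 in Wnt1 culture. With probe sets averaged, Tnfrsf19 and Lef1 no longer passed in Wnt1 culture (adjusted p = 0.202 and 0.278). With signals floored at 298.6, Ccnd1 did not pass in either comparison (0.0819 and 0.0692), nor Lef1 in Wnt1 culture (0.0937). Under quantile normalization 0 rose and 4 fell in control culture (565 and 685 of all 16112 genes), and 0 rose and 5 fell in Wnt1 culture (311 and 361). In tip minus stalk 0 of 22 passed (0 at an unadjusted p under 0.05), with Sp5 at 0.73 and Ctnnbip1 at -0.58.

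Likeness to the 4 genes whose representative probe set had a group mean above 298.6 was measured as Pearson's r over the 8 arrays among 11272 genes. The arrays share their group, scale and RNA quality, so r is given as a description. The genes named were picked by r over these same arrays, so a pattern shared with the member follows from the choice. Dkk2 was most like Stim1, a calcium sensor (0.976), Gsr, glutathione reductase (0.964) and Nkg7 (0.958). Stim1 read 339 and 336 in Wnt1 culture and 126 to 183 on the other arrays. Gsr read 528 and 478 in Wnt1 culture and 124 to 278 elsewhere. Each gene compared had to have a group mean above 298.6, which Stim1 and Gsr reached only in Wnt1 culture. Sfrp1 was most like Zfp704 (0.990), Rptor, a subunit of mTORC1 (0.989) and Sestd1 (0.988). For Sfrp1, 10% of the compared genes had r above 0.793, against 0.708 for Dkk2. Sfrp2 was most like Zfhx3, a transcription factor (0.974), Ercc6l (0.953) and Extl3 (0.938), and Zfhx3, like Sfrp2, was high on the control culture array numbered 2 (5038) and low on the array numbered 1 (1743). Dkk3 was most like Zfp454 (0.957), Rpap2 (0.901) and Atg2b (0.865), and Rpap2 read 659 and 785 in tip against 339 and 442 in stalk.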

How the data were processed

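The authors deposited a linear signal intensity for each probe set on each array. The submitters' processing notes name Affymetrix Expression Console and MAS5, and tool versions are not given in the sources used. The trimmed mean is 500.0 on every array. Scaling to a common mean can raise dim signals on arrays with few bright ones, and its part here was not tested. Of 45101 probe sets, 64 controls and those with several symbols (932) or none (9160) were left out. Probe sets above 96.6 (40th percentile) on at least 2 arrays were kept, and the one with the highest mean stood for its gene, leaving 16112 genes. Levels of different probe sets cannot be compared.

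log2(value + 44.5), with the 25th percentile as pseudocount, was fitted over all 8 arrays with limma 3.58.1 in R 4.3.3 (lmFit, eBayes with an intensity trend, no covariates). This scale understates the fold changes of dim genes. Two-sided p-values were adjusted over all genes (Benjamini-Hochberg), and 0.05 was the threshold. The fit was tested on simulated data. Motifs and figures used Python 3.11.15 and matplotlib 3.10.9.

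Members, pathway lists and marker lists were chosen with earlier results of these data known. Each member is named, with up to 4 genes past the threshold by p from each of 4 pathway lists (otherwise the 2 largest differences) and the 3 genes most like each bright member. Tbx4, Fgf10, Cdh1, Foxa2, Nkx2-1, Krt8, Krt18, Id2, Epcam, Sox9, Acta2, Tek and Emcn were named from the marker lists after their values were seen. Correlations of replicate differences between groups ran from -0.08 to 0.30, so the replicate numbers were not taken to pair samples.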

Additional observations from a re-analysis of the deposited data

How the results depend on the processing

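The number of the 8 genes past the threshold stayed at 0 between tip and stalk in all 23 alternatives, a threshold of 0.1 among them. In Wnt1 minus control culture it was 1 (Dkk2) with signals floored at the highest array median, and in control culture minus stalk 1 (Sfrp1) with medians centred and 0 to 1 with each replicate left out (Sfrp2 without control culture replicate 2). In Wnt1 culture minus stalk it was 2, but 1 (Dkk2) with the pseudocount at the highest array median, no filter, that floor, averaged probe sets, all probe sets fitted, no intensity trend, array quality weights or the arrays of the 2 groups only, 0 with quantile normalization, and 0 to 3 with each replicate left out. With medians centred it was also 2, but Sfrp1 and Sfrp2, with Dkk2 lost, and at a threshold of 0.1 it was 3 (Dkk2, Sfrp1 and Sfrp2).

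The replicate block kept it at 2 (Dkk2, adjusted p = 0.00969) and moved the calls over all genes from 2613 to 3952. Counts over all genes also moved by more than 1.5 times elsewhere. For control culture minus stalk they were 4247, against 728 with the floor, 1250 with quantile normalization, 6500 at a threshold of 0.1 and 61 to 6361 with a replicate left out (61 and 113 without a stalk array, 790 without control culture replicate 1, 2275 without either tip array). For Wnt1 culture minus stalk they were 1616 with the high pseudocount, 330 with the floor, 672 with quantile normalization, 4972 at 0.1 and 65 to 5568 with a replicate left out (65 and 127 without a stalk array, 817 without Wnt1 culture replicate 1). For Wnt1 minus control culture 0 became 59 with the floor, 1 with pseudocount 16, averaged probe sets or the block, and up to 61 with a replicate left out, and for tip minus stalk 0 became 1 with the floor.

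Directions turned under quantile normalization and medians centred, in that order, for Dkk1 in tip minus stalk (-0.010 and -0.0086). In control culture minus stalk they turned for Frzb (-0.17, -0.36), Dkk1 (-0.063, -0.097), Dkk2 (-0.36, -0.59) and Wif1 (-0.87, -1.03), and in Wnt1 culture minus stalk for Frzb (-0.40, -0.55), Dkk1 (-0.34, -0.33), Dkk3 (-0.13, -0.70) and Wif1 (-0.27, -0.30). The floor turned Dkk3 (0.12) and Kremen1 (0.071) in control culture minus stalk. Averaged probe sets turned Sfrp1 (0.067), Dkk3 (0.18), Kremen1 (0.57), Fzd3 (0.018) and Rspo2 (0.22) there, and Kremen1 (0.56) and Rspo2 (0.18) in Wnt1 culture minus stalk. The cause was not tested.

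With a replicate left out, directions turned for Dkk1 (tip minus stalk -0.26 to 0.40, Wnt1 minus control culture -1.21 to 0.34, Wnt1 culture minus stalk -0.13 to 1.42), Dkk2 (tip minus stalk -0.11 to 0.33), Dkk3 (control culture minus stalk -0.32 to 0.28, Wnt1 culture minus stalk -0.018 to 0.59), Frzb (Wnt1 minus control culture -1.32 to 0.53, Wnt1 culture minus stalk -0.49 to 1.35), Kremen1 (control culture minus stalk -0.79 to 0.56, tip minus stalk -0.37 to 0.27, Wnt1 minus control culture -1.03 to 0.32), Sfrp1 (tip minus stalk -0.25 to 0.022), Sfrp2 (control culture minus stalk -1.40 to 0.22, Wnt1 minus control culture -1.51 to 0.12) and Wif1 (control culture minus stalk -0.059 to 0.36, tip minus stalk -0.35 to 0.075). A lone array is then assumed to vary like the other groups. Frzb, Wif1 and Dkk1 lie near or below the array medians, which limits any statement on them.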
